A study of Rattus norvegicus with 16 samples.

Results

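The mammary glands of female rats that had received no test compound were compared between postnatal day (PND) 50 and PND35. The members were the 2 control pools of PND50 and the 2 control pools of PND35, taken by their sample titles, which are 4 of the 16 arrays of the series. The level of each age comes from these 4 arrays, while the standard errors and p-values come from a fit of all 16 that shares 1 estimate of the spread. All animals were Wistar Han rats on a purified diet free of phytoestrogens, and the labels state that 1 female was taken per litter. They also give 15 dams per treatment, while the 4 pools of a treatment hold 20 females, so some litters may have given females to more than 1 pool, and the labels do not say which. The control groups carry the label of no treatment, and whether their mothers were given a gavage vehicle is not stated by the labels. The other 12 arrays came from daughters of dams gavaged with genistein, vinclozolin or a mixture of them, at a daily dose of 1 mg per kg, from gestational day 1 to weaning at PND21. They were killed at PND50 or PND35, with 2 pools in each group of exposure and age. Genistein is a soy isoflavone and a ligand of estrogen receptors, and the fungicide vinclozolin acts against androgens.

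Each array carried RNA of 5 animals, extracted gland by gland and then pooled. Differences between animals, and the stage of the estrous cycle of each, are therefore averaged within a pool, and the p-values measure the spread between pools. Deposited values are log2 intensities. Over 27342 probe sets the control PND50 pools correlated at 0.9965 with each other and the control PND35 pools at 0.9966, while pools of different age correlated between 0.9925 and 0.9949. The number of arrays limits the precision: over the genes tested, the standard error of the log2 fold change had a median of 0.0941. Whole glands were sampled, so for every gene below fewer cells of a type and less RNA per cell cannot be told apart.

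At the younger age the rat gland is in puberty. Ducts grow through the fat pad from terminal end buds, club-shaped tips of dividing cells, under estrogen, growth hormone and local growth factors. At the older age most females cycle, end buds give way to branched ducts with alveolar buds, and progesterone and prolactin act on the luminal cells that can later make milk. The epithelium has an inner luminal and an outer basal or myoepithelial layer, and it lies among adipocytes, fibroblasts, vessels and resident immune cells. RNA of marker genes of the luminal layer, the basal layer and adipocytes was measured in the control pools. Krt8, Krt18 and Krt19 of luminal cells, Krt14 of basal cells and Adipoq and Fabp4 of adipocytes lay between 7.99 and 12.87 on the log2 scale in the 4 pools, above the filter value of 5.661 under which genes were left untested. Krt5, Acta2, Mki67 and Pecam1 were not named on the array.

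The control gland differed with age in a small set of genes, with Cd7, Tacr1 and Anxa8 the furthest higher and Alox15, Agt and Epha3 the furthest lower at PND50. Of 11796 genes tested, 102 passed an adjusted p of 0.05 (0.865%), 74 higher at PND50 (0.627%) and 28 lower (0.237%). An unadjusted p under 0.05 was found for 2154 genes, those 102 included. A positive log2 fold change was found in 50.7% of all genes tested. The counts of called and of positive or negative list members below stand beside these shares. Cd7, which T cells and natural killer cells carry on their surface, stood at 9.76 and 9.86 in the PND50 pools and at 8.203 and 8.03 in the PND35 pools, a 3.24-fold higher intensity (log2 fold change 1.70, SE 0.14, adjusted p = 0.000988). Which cells made Cd7 here was not tested. Alox15, a lipoxygenase that oxygenates arachidonic and linoleic acid, stood at 7.36 and 8.11 in the PND50 pools and at 9.93 and 9.47 in the PND35 pools, a 3.90-fold lower intensity (adjusted p = 0.0219). In both genes the gap between the ages was wider than the gap between pools of 1 age. Among the 102 genes, 57 differed at least 1.5-fold, 43 higher and 14 lower, and 9 at least 2-fold, 6 higher and 3 lower.

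**Figure D1:**
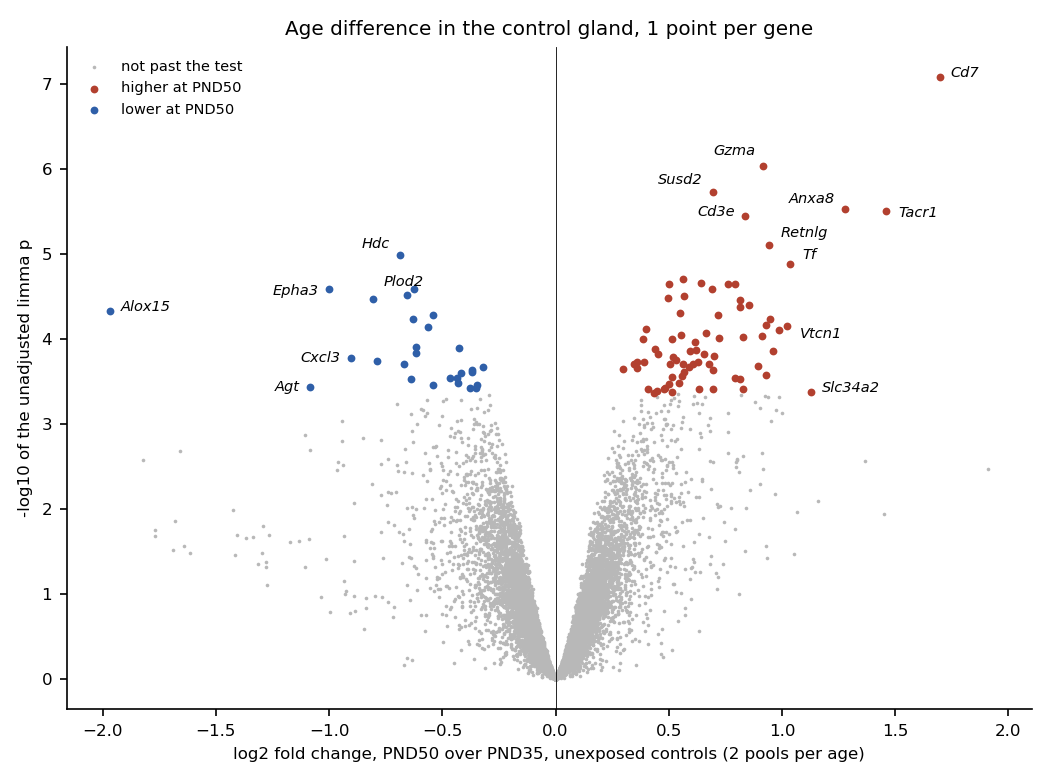
Each point is 1 of the 11796 tested genes, with the log2 fold change of PND50 over PND35 in the unexposed controls on the x axis and the -log10 of the unadjusted limma p on the y axis. Coloured points are the 74 genes called higher and the 28 called lower at PND50, and Cd7 and Alox15 mark the widest changes among them.

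Most of the 102 calls were lost whichever of the 4 control pools was left out, and a few genes held. Without PND50 replicate 1 the count was 3, all of them among the 102, and without PND50 replicate 2 it was 10, of which 8 were. Without PND35 replicate 1 it was 41, of which 24 were among the 102, and without PND35 replicate 2 it was 2, both among them. In these fits a lone pool stands for its age and is assumed to vary like the other groups. Cd7 passed in all 4 of these fits, Cd3e and Gzma in 3, and Tacr1 and Anxa8 in 2. Fitted on the 4 control arrays alone, 176 genes passed, which held 61 of the 102. With the list mean of luminal genes or of T and natural killer cell genes as a covariate no gene passed (smallest adjusted p = 0.574 and 0.534, and 57 and 26 of the 102 at an unadjusted p under 0.05). The median size of the 102 was then 0.399 with the luminal and 0.379 with the lymphocyte mean, in place of 0.619, and 102 and 99 of them kept their sign. These list means themselves separated the ages.

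Among genes of antigen presentation through MHC class II, 4 rose. Class II molecules are made of an alpha and a beta chain, are held by the invariant chain Cd74 until peptides are loaded, and are switched on together by the coactivator Ciita, which binds a complex on the X and Y boxes of their promoters. These 4 were among 9 tested, and none fell. Ciita stood at 7.26 and 7.24 in the PND50 pools and at 6.75 in each of the PND35 pools (log2 fold change 0.50, SE 0.07, adjusted p = 0.0181). The PND35 pools were nearly equal, and both PND50 pools lay above them.

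The 4 rat genes of the list that encode class II chains and carried a Y box in the exact letters given below are shown. Their upstream sequences are printed because they are the part of the promoter on which the coactivator works. The 250 bases before each gene's start are given 5′ to 3′ on the gene's strand, from RefSeq on the build GRCr8, with the Y box (CTGATTGG) and the X box (TAG, any base, AAC, any base, GATG) in capitals. Their positions are chr20:4515165-4515414 on the plus strand for RT1-Da, chr20:4560163-4560412 on the minus strand for RT1-Db1, chr20:4576807-4577056 on the plus strand for RT1-Ba and chr20:4604119-4604368 on the minus strand for RT1-Bb.
RT1-Da: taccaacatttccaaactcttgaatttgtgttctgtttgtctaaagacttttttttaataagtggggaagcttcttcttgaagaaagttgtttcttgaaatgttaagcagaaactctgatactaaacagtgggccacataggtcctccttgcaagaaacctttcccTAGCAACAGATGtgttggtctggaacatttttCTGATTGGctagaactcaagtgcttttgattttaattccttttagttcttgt
RT1-Db1: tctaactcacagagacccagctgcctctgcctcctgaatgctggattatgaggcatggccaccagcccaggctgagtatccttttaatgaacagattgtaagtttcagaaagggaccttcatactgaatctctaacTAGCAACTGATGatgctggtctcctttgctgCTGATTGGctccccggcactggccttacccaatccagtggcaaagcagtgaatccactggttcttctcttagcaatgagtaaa
RT1-Ba: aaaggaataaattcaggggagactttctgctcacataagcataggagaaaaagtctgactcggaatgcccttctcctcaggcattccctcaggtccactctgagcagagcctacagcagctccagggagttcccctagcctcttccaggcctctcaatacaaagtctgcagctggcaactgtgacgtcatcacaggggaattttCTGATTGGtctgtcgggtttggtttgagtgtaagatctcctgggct
RT1-Bb: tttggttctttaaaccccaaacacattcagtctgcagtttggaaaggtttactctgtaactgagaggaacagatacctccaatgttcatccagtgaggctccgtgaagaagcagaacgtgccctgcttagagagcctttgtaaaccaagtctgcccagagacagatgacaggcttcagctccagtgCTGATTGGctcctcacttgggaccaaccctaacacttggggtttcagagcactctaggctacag
Both motifs were searched on both strands, and they did not overlap each other. Only these exact letters were counted. A box spelled otherwise would be missed, so a promoter without a match was not shown to lack the box. A Y box began 52 bases before the start in RT1-Da, 83 in RT1-Db1, 46 in RT1-Ba and 64 in RT1-Bb, and an X box began 84 bases before it in RT1-Da and 114 in RT1-Db1. Of 33469 RefSeq promoters of the same length, 3.19% held this Y box and 0.0538% this X box. Promoter entries were found for 7 of the 9 genes, and these letters are a description of the windows only.

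The genes behind these promoters did not all pass. RT1-Ba, an alpha chain, stood at 9.53 and 9.57 in the PND50 pools and at 9.19 and 9.002 in the PND35 pools (log2 fold change 0.45, SE 0.08, adjusted p = 0.0344). RT1-Db1, a beta chain, had 8.31 and 8.34 in the PND50 pools and 8.01 and 7.82 in the PND35 pools (0.41, SE 0.08, adjusted p = 0.0472). RT1-Bb had the widest difference of the list, with 9.53 and 9.48 against 8.91 and 8.51 in the PND35 pools, but its adjusted p was 0.0996 with a standard error of 0.21. RT1-Da, which holds both boxes, had 9.25 and 9.14 in the PND50 pools and 8.93 and 9.23 in the PND35 pools, so its ages overlapped (adjusted p = 0.607).

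Cd74 rose too, with 12.56 and 12.45 in the PND50 pools and 12.21 and 12.08 in the PND35 pools (0.36, SE 0.07, adjusted p = 0.0354). RT1-DMa and RT1-DMb, the chains of the peptide exchanger, had log2 fold changes of 0.35 and 0.28 and did not pass. The protease Ctss, which cuts the invariant chain, had -0.24. The median of the 9 genes was 0.36, beside 0.003 over all genes tested. In 7 of the 9 both PND50 pools lay above both PND35 pools, as they did in 27.8% of all tested genes, and RT1-Ba was the only member that passed without any 1 control pool, namely without PND35 replicate 1.

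Of 15 genes of T and natural killer cells tested, 4 rose and none fell, and 14 had a positive log2 fold change (median 0.36). Among all genes tested 0.627% rose and 50.7% were positive. Besides Cd7 these were Cd3e, a signalling chain of the T cell receptor complex, Gzma, a granzyme of cytotoxic granules, and Nkg7, a protein of the same granules. Gzma had 6.31 and 6.50 in the PND50 pools and 5.54 and 5.43 in the PND35 pools (log2 fold change 0.92, SE 0.10, adjusted p = 0.00542). Both PND35 values of Gzma lay under the filter value of 5.661, so its difference was measured from a dim level. Cd3e had 6.95 and 6.83 in the PND50 pools and 5.94 and 6.17 in the PND35 pools (0.84, SE 0.10, adjusted p = 0.00714). Nkg7 had 7.67 and 7.69 in the PND50 pools and 6.86 and 6.98 in the PND35 pools (0.76, SE 0.11, adjusted p = 0.0181).

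In each of these genes the 2 ages were clear of each other by more than the distance between pools of 1 age. Other genes of the same list had no such gap. Cd4 had 10.98 and 10.90 in the PND50 pools and 11.001 and 11.10 in the PND35 pools (-0.11). The levels of Cd4 and of Cd7 were far above that of Cd3e, and which cells made Cd4 or Cd7 was not tested. Cd8a had 6.32 and 6.37 against 6.21 and 6.46 (0.01). Klrd1, Ccl5 and Il7r lay in between, with 0.51, 0.53 and 0.47 and adjusted p-values from 0.08 to 0.0994. Cd3d and Cd3g, further chains of the complex that holds Cd3e, had means under the filter value and were not tested. Cd3d had 5.568 and 5.665 in the PND50 pools and 5.551 and 5.71 in the PND35 pools. Cd3g had 4.33 and 4.26 against 3.87 and 4.05. Without any 1 control pool, 2 or 3 of the list were called, always from Cd7, Cd3e and Gzma. Klrb1c, a lectin-like receptor of natural killer cells outside this list, rose by 0.91 (SE 0.16).

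Among B and plasma cell genes 1 of 7 rose. This was Jchain, which joins the units of dimeric IgA and of IgM, with 6.72 and 6.71 in the PND50 pools and 5.82 and 5.71 in the PND35 pools (0.95, SE 0.15, adjusted p = 0.0231). Cd22 (0.27) and Blk (0.24), of B cells, did not pass. No macrophage or dendritic cell gene of 17 passed, with 7 positive and a median of -0.007. Among these Xcr1 and Flt3 of dendritic cells had 0.53 and 0.30, and Mrc1, the mannose receptor of tissue macrophages, had -0.36. The summed linear intensity of the macrophage list was 12023 and 10997 in the PND50 pools and 11389 and 12264 in the PND35 pools, so the ages overlapped, while that of the T and natural killer cell list was 4428 and 4310 against 3451 and 3629.

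Of 23 chemokines and chemokine receptors 2 rose. Ccl11, which draws eosinophils, had 7.28 and 7.61 in the PND50 pools and 6.40 and 6.56 in the PND35 pools (0.96, SE 0.17, adjusted p = 0.0332). Ccl21, a chemokine of lymphatic vessels that guides T cells and dendritic cells, had 10.63 and 10.70 in the PND50 pools and 9.95 and 9.79 in the PND35 pools (0.79, SE 0.16, adjusted p = 0.0419). Cx3cl1 had the widest difference of the list, 0.99 (SE 0.21), and did not pass (adjusted p = 0.0519). Of 16 interferon response genes none passed, with 12 positive.

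**Figure D2:**
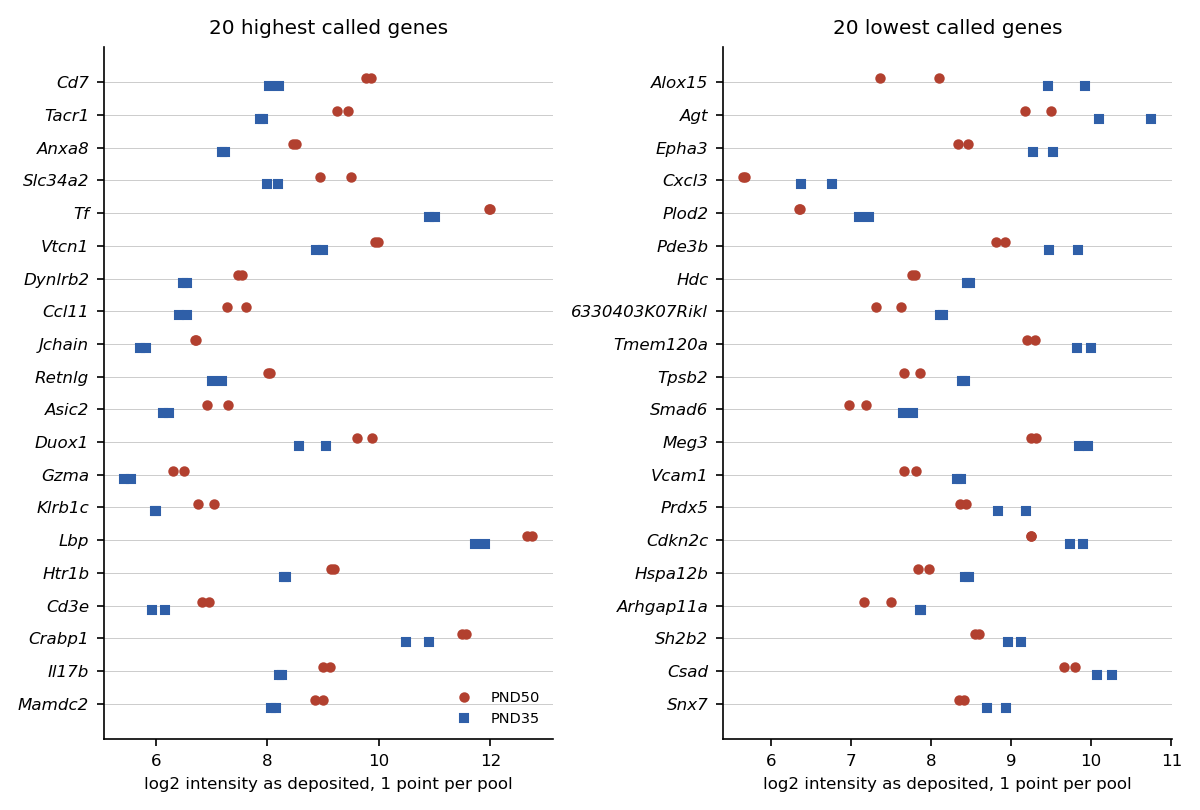
Log2 intensity of the 20 highest and the 20 lowest called genes in each control pool, PND50 as circles and PND35 as squares, on the x axis, with genes ordered by fold change down the page. In every gene shown both pools of 1 age lie on the same side of both pools of the other, which the rule for drawing genes required. All 102 called genes met it. Among all tested genes both PND50 pools were higher in 27.8% and lower in 26.7%.

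Of 12 genes of defence proteins secreted onto mucosal surfaces 2 rose, none fell and 11 were positive (median 0.39), and none was called in the 4 fits without 1 control pool. Tf encodes transferrin, which binds iron in milk and plasma, and had 11.98 and 12.001 in the PND50 pools and 10.90 and 11.01 in the PND35 pools, a 2.05-fold difference (SE 0.14 on the log2 scale, adjusted p = 0.0171). Lbp, which binds bacterial lipopolysaccharide, had 12.75 and 12.66 in the PND50 pools and 11.90 and 11.72 in the PND35 pools (0.89, SE 0.17, adjusted p = 0.0367). The polymeric immunoglobulin receptor Pigr, which carries dimeric IgA across the epithelium, had 0.49 and an adjusted p of 0.101, and Ltf, which encodes lactoferrin, had -0.40 and 0.193. Duox1, an oxidase that makes hydrogen peroxide at epithelial surfaces, rose by 0.93 (SE 0.15, adjusted p = 0.0257).

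Of 22 luminal epithelial genes tested 2 rose, none fell, 21 were positive and the median was 0.41. The shares over all genes tested were 0.627% called higher and 50.7% positive. The summed linear intensity of the list was 21186 and 22349 in the PND50 pools and 17006 and 14991 in the PND35 pools. Ehf and Elf5 are transcription factors of the ETS family, and Elf5 is needed in the mouse for alveolar cells. Ehf had 10.10 and 10.23 in the PND50 pools and 9.42 and 9.51 in the PND35 pools (0.70, SE 0.13, adjusted p = 0.0354). Elf5 had 10.32 and 10.49 in the PND50 pools and 9.82 and 9.60 in the PND35 pools (0.69, SE 0.13, adjusted p = 0.0373). Both rose 1.62-fold. Gata3, a factor of luminal differentiation, had 12.04 and 12.11 against 11.55 and 11.38 in the PND35 pools (0.61, adjusted p = 0.055) and lay just outside the threshold.

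The keratins of the luminal layer stayed under it as well: Krt8, Krt18 and Krt19 had 0.14, 0.35 and 0.46 with adjusted p-values from 0.182 to 0.42. Prom1 had the widest difference of the list, 1.07, but its PND35 pools lay far apart, at 9.44 and 8.08, and it passed only without PND35 replicate 1. Of 15 alveolar and hormone-sensing regulators all were positive (median 0.31) and 3 rose, Ehf, Elf5 and Sox10. Sox10, a factor of mammary progenitors and of glial cells, had 9.17 and 9.36 in the PND50 pools and 8.81 and 8.82 in the PND35 pools (0.45, SE 0.09, adjusted p = 0.0487). The prolactin signal transducers Stat5a (0.32) and Stat5b (0.28) did not pass.

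The genes most often named for the luminal response to hormones were not among those called. Of 12 steroid and peptide hormone receptor genes none passed, with 6 positive and a median of 0.006. Esr1, the estrogen receptor, had 10.44 and 10.34 in the PND50 pools and 10.69 and 10.36 in the PND35 pools, Pgr, the progesterone receptor, had 9.88 and 9.51 against 9.46 and 9.12, and Prlr, the prolactin receptor, had 10.10 and 10.16 against 9.79 and 9.64. Esr1 overlapped between the ages, while Pgr (0.41, SE 0.32) and Prlr (0.42, SE 0.14) were higher in both PND50 pools without passing. Of 14 estrogen and progesterone targets none passed either. Areg, the epidermal growth factor ligand that estrogen induces in ducts, had 0.57 (SE 0.26), and Fgf10, a stromal growth factor, had -0.77 (SE 0.21, adjusted p = 0.101). Tnfsf11, a paracrine signal of progesterone, lay below the filter, with 5.50 and 5.52 in the PND50 pools and 6.27 and 5.49 in the PND35 pools.

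Myoepithelial cells are smooth-muscle-like cells that squeeze milk from the alveoli in response to oxytocin. Of 16 basal and myoepithelial genes tested 3 rose and 14 were positive (median 0.43), beside 0.627% and 50.7% of all genes tested. Cnn1, a calponin, had 10.60 and 10.56 in the PND50 pools and 9.75 and 9.96 in the PND35 pools (0.72, SE 0.12, adjusted p = 0.0282). Actg2, the enteric smooth muscle actin, had 10.21 and 10.17 in the PND50 pools and 9.49 and 9.62 in the PND35 pools (0.63, SE 0.13, adjusted p = 0.0472), and Tagln, which encodes transgelin, had 10.49 and 10.58 against 10.10 and 9.98 (0.50, SE 0.10, adjusted p = 0.0464). These proteins are also made by the smooth muscle of vessels.

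Members that define the layer otherwise did not pass. The factor Tp63 had 0.49, Myh11, a smooth muscle myosin, 0.46, and the oxytocin receptor Oxtr -0.13, the last with 11.41 and 10.998 in the PND50 pools and 11.36 and 11.30 in the PND35 pools. Krt14 overlapped between the ages, with 8.70 and 9.05 in the PND50 pools and 8.73 and 7.99 in the PND35 pools. Krt17 had 8.07 and 8.26 against 7.57 and 6.80 (0.97, adjusted p = 0.0588), and passed only without PND35 replicate 1.

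Part of the genes of the milk fat globule and of secretion rose. Of 11 fat globule and secretion genes 3 rose and none fell. Btn1a1 encodes butyrophilin, a membrane protein of the globule, and had 11.52 in each of the PND50 pools and 10.80 and 10.61 in the PND35 pools (0.81, SE 0.13, adjusted p = 0.0186). Slc34a2, a phosphate transporter of the apical membrane, had 8.94 and 9.50 in the PND50 pools and 8.19 and 7.99 in the PND35 pools (1.13, SE 0.23, adjusted p = 0.0498). Muc15, a mucin of the globule, rose by 0.68 (SE 0.13, adjusted p = 0.0354). Muc1 had a difference of 0.97 and did not pass (SE 0.29).

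Milk protein genes did not order by age as a list. Both PND50 pools were higher in 4 of the 10 tested and lower in 1, beside 27.8% and 26.7% of all tested genes. Of 10 tested 1 rose, the transferrin gene named above, 5 were positive and the median was -0.165. Csn2, which encodes beta-casein, had 8.07 and 10.45 in the PND50 pools and 9.87 and 9.54 in the PND35 pools. Csn1s2a had 6.19 and 9.51 against 8.97 and 8.04, and Glycam1 had 8.32 and 12.49 against 12.56 and 9.59. In all 3 genes the pools of 1 age lay further apart than the ages, and in each PND50 replicate 1 was the lowest of the 4 pools. Lalba, the lactose synthase subunit alpha-lactalbumin, and Csn3, kappa-casein, were tighter, with 0.37 (SE 0.12) and 0.47 (SE 0.13), and did not pass. Without PND50 replicate 1 the median of the list was 0.458.

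Tight junctions seal the epithelium and separate milk from the tissue fluid. Of 17 claudin and junction genes 2 rose, none fell and 15 were positive (median 0.26). Over all genes 0.627% rose and 50.7% were positive. Ocln, which encodes occludin of tight junctions, had 9.38 and 9.19 in the PND50 pools and 8.82 and 8.75 in the PND35 pools (0.51, SE 0.09, adjusted p = 0.0354). Marveld2 encodes tricellulin, which seals the corners where cells meet, and had 7.23 and 7.26 in the PND50 pools and 6.74 and 6.71 in the PND35 pools (0.52, SE 0.09, adjusted p = 0.0282). Both pools of each age lay close together in these genes. Of 18 ion and solute transporters 1 rose, Slc34a2, and the 3 subunits of the epithelial sodium channel, Scnn1a, Scnn1b and Scnn1g, had 0.59, 0.72 and 0.65 without passing.

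Several genes of the 20 highest belonged to no list. Tacr1, the receptor of the neuropeptide substance P, had 9.45 and 9.25 in the PND50 pools and 7.92 and 7.87 in the PND35 pools, a 2.75-fold difference (SE 0.18 on the log2 scale, adjusted p = 0.00714). Anxa8, an annexin that binds calcium and phospholipids, had 8.52 and 8.46 in the PND50 pools and 7.24 and 7.19 in the PND35 pools (1.28, SE 0.15, adjusted p = 0.00714). Vtcn1, a B7 family ligand that restrains T cells and is made by epithelia, had 9.98 and 9.93 in the PND50 pools and 8.99 and 8.87 in the PND35 pools (1.02, SE 0.17, adjusted p = 0.0257). In these 3 genes the pools of an age lay close together and the ages far apart. The serotonin receptor Htr1b rose by 0.86 (SE 0.13) and the acid-sensing channel Asic2 by 0.93 (SE 0.18), and neither was called in the 4 fits without 1 control pool. Crabp1, which binds retinoic acid in the cytoplasm, rose by 0.83 (SE 0.14), and Il17b, a cytokine of the interleukin 17 family, by 0.83 (SE 0.17).

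Fewer genes fell, and most of them by less than 2-fold. Alox15 was the widest, 1 of 14 eicosanoid genes and the only one of them called. Its PND50 pools lay further apart than those of any other called gene, and it was called without PND50 replicate 2 but not without any other control pool. Hpgd, which inactivates prostaglandins, had -0.89 (SE 0.28, adjusted p = 0.147). Agt, the precursor of angiotensin and a product of fat tissue, had 9.18 and 9.50 in the PND50 pools and 10.09 and 10.75 in the PND35 pools (-1.08, SE 0.22, adjusted p = 0.0471). Pde3b, the phosphodiesterase through which insulin restrains fat breakdown, had 8.92 and 8.81 in the PND50 pools and 9.48 and 9.84 in the PND35 pools (-0.79, SE 0.15, adjusted p = 0.0354).

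Eph receptors and ephrins are both held in membranes and signal where cells touch. Of 17 genes of these and other guidance families 2 fell and none rose. Epha3, a receptor, had 8.46 and 8.34 in the PND50 pools and 9.28 and 9.53 in the PND35 pools (-1.002, SE 0.15, adjusted p = 0.0181). Efnb1, a ligand of the B class, had 9.11 and 9.09 in the PND50 pools and 9.46 and 9.44 in the PND35 pools (-0.35, SE 0.07, adjusted p = 0.0472). The other 15 lay between -0.39 (Sema3d) and 0.35 (Ntn1, adjusted p = 0.0655), and the median of the list was -0.065.

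Mast cells lie in the stroma and the fat pad and store histamine and proteases in their granules. Of 12 mast cell and basophil genes tested 2 fell, none rose and 10 were negative (median -0.38). Hdc, the enzyme that makes histamine, had 7.77 and 7.80 in the PND50 pools and 8.45 and 8.49 in the PND35 pools (-0.69, SE 0.09, adjusted p = 0.0151). Tpsb2, a tryptase, had 7.67 and 7.87 in the PND50 pools and 8.38 and 8.43 in the PND35 pools (-0.64, SE 0.13, adjusted p = 0.0419). The proteases Tpsab1 (-0.94), Cma1 (-0.51) and Cpa3 (-0.42) and the receptor chain Ms4a2 (-0.50) were lower in both PND50 pools without passing. In 10 of the 12 genes both PND50 pools lay under both PND35 pools, as in 26.7% of all tested genes, and the summed linear intensity of the list was 5498 and 5697 in the PND50 pools and 6966 and 6985 in the PND35 pools. Kit, the stem cell factor receptor, which luminal progenitors of the mouse make as well as mast cells, had the opposite sign, with 9.20 and 9.04 against 8.31 and 8.29 in the PND35 pools (0.82, adjusted p = 0.0516).

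Vcam1, an adhesion molecule through which leukocytes leave vessels, fell by 0.62 (SE 0.11, adjusted p = 0.0343). Plod2, which hydroxylates lysines of collagen, fell by 0.80 (SE 0.12), Smad6, an inhibitor of bone morphogenetic protein signals, fell by 0.63 (SE 0.10), and Meg3, an imprinted long noncoding RNA, fell by 0.62 (SE 0.09). Cxcl3, a chemokine for neutrophils, had 5.68 and 5.66 in the PND50 pools and 6.76 and 6.38 in the PND35 pools (-0.90, SE 0.17), so its PND50 values lay at the filter value. Cdkn2c, an inhibitor of cyclin-dependent kinases, fell by 0.56 (SE 0.09).

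**Figure D3:**
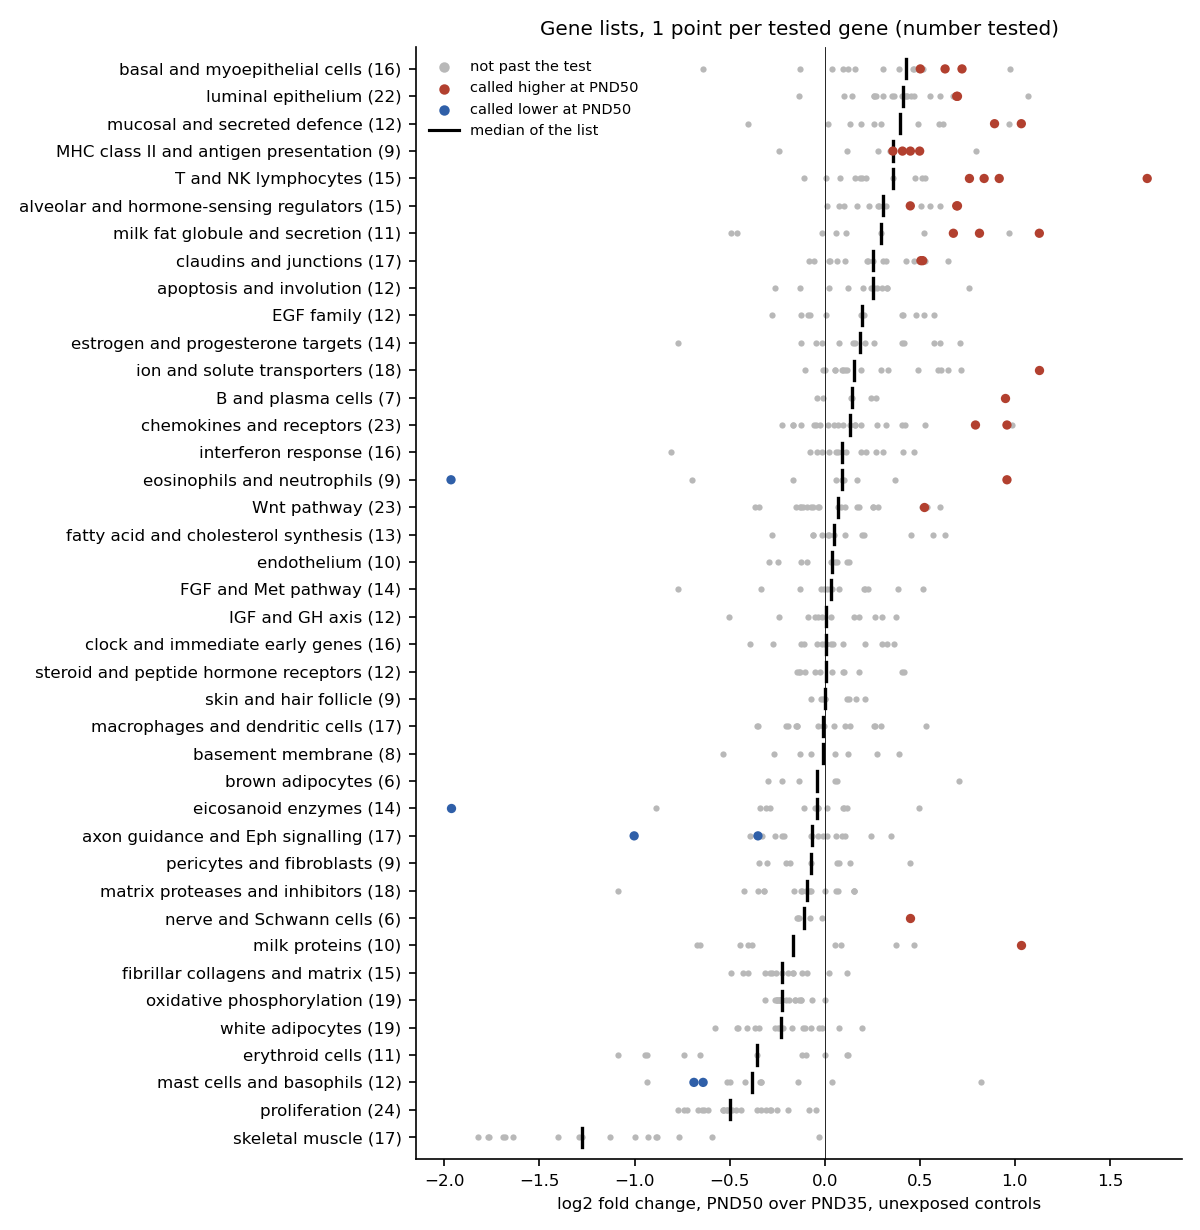
Log2 fold change of PND50 over PND35 in the controls on the x axis for every tested gene of the 40 lists, 1 list per line with its number of tested genes and a black bar at its median. Coloured points are genes called higher or lower, and the skeletal muscle (-1.28), proliferation (-0.50) and basal lists (0.43) lie at the ends of the order by median.

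Some lists lay to one side without a gene past the test. All 24 proliferation genes had a negative log2 fold change (median -0.499), and 12 of them were lower in both PND50 pools, beside 26.7% of all tested genes. Bub1b, a checkpoint kinase of mitosis, had 5.87 and 6.36 in the PND50 pools and 6.98 and 6.80 in the PND35 pools (-0.77, SE 0.19, adjusted p = 0.08). Top2a, the topoisomerase of dividing cells, had 8.33 and 9.26 in the PND50 pools and 9.46 and 9.20 in the PND35 pools (-0.54, SE 0.29). The list mean was 7.34 and 8.0 in the PND50 pools and 8.23 and 8.02 in the PND35 pools, so PND50 replicate 1 was low and replicate 2 lay beside the younger pools. Without PND50 replicate 1 the median was -0.115, and without PND50 replicate 2 it was -0.862. PND50 replicate 1 was thus the lowest control pool in the proliferation list, in Csn2 and in Csn1s2a.

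Skeletal muscle genes had the most negative median, -1.28 over 17 genes, all negative and none past the test. Muscle is no part of the gland and can come with it from the body wall. In 16 of the 17 both PND50 pools lay under both PND35 pools, as in 26.7% of all tested genes. The list mean was 7.57 and 7.39 in the PND50 pools and 8.62 and 8.76 in the PND35 pools, and its summed linear intensity was 4574 and 4144 against 10546 and 11696. Pvalb, the parvalbumin of fast fibres, had 6.35 and 6.17 in the PND50 pools and 8.08 in each of the PND35 pools (-1.82, SE 0.48, adjusted p = 0.0993). The standard error is shared by all groups of the fit, and the muscle means of the exposed pools ran between 6.46 and 9.74 at PND50 and between 8.31 and 10.63 at PND35. With this list mean, which itself separates the ages, as a covariate, 2 of the 102 genes passed, Cd7 and Hdc. The 102 had a median size of 0.582 in that fit, in place of 0.619, and the part of muscle in the calls was not tested.

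Oxidative phosphorylation genes had 18 of 19 members negative, none past the test, with a median of -0.226. Ndufb5, a subunit of complex I, had 9.92 and 9.98 in the PND50 pools and 10.12 and 10.27 in the PND35 pools (-0.25, SE 0.07). Ndufs5, a complex I subunit outside the list, fell by 0.32 (SE 0.06, adjusted p = 0.0367). White adipocyte genes had a median of -0.231, with 17 of 19 negative. Cebpa, a factor of adipocyte differentiation, had -0.58 (SE 0.19), Pparg -0.37 (SE 0.15) and Adipoq, which encodes adiponectin, -0.17 (SE 0.10). The list mean was 11.04 and 10.86 in the PND50 pools and 11.07 and 11.26 in the PND35 pools, which do not overlap but nearly touch.

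Erythroid genes had a median of -0.357 over 11 genes. The globin gene Hbb had 11.45 and 11.47 in the PND50 pools and 12.16 and 12.23 in the PND35 pools (-0.74, SE 0.19, adjusted p = 0.0985), and Alas2, the first enzyme of haem synthesis in red cells, had 8.83 and 9.11 against 9.89 and 9.93 (-0.94, SE 0.23, adjusted p = 0.0804). Both pools of each age lay together in these genes, and neither passed. Of 15 fibrillar collagen and matrix genes 13 were negative (median -0.225). Among them Lox, which crosslinks collagen, had -0.29 (SE 0.06, adjusted p = 0.0553) and Eln, which encodes elastin, -0.43 (SE 0.10, adjusted p = 0.0726).

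The growth factor lists used here held 1 called gene in the controls. Called genes of other growth factor signals, such as Smad6 named above, belonged to none of them. None of 12 epidermal growth factor genes, 12 insulin-like growth factor genes and 14 fibroblast growth factor and Met genes passed. The receptors Erbb3 and Erbb4 had 0.41 and 0.52, Fgfr2 had 0.51 (adjusted p = 0.0996), and Igfbp5, a binding protein known from involution, had 0.30 (SE 0.07, adjusted p = 0.0804). Igf1, which growth hormone induces in the stroma, had 12.46 and 12.34 in the PND50 pools and 12.49 and 12.47 in the PND35 pools (-0.09, SE 0.07). Of 23 Wnt pathway genes 1 rose, the ligand Wnt5b, with 7.20 and 7.27 in the PND50 pools and 6.62 and 6.81 in the PND35 pools (0.52, SE 0.10, adjusted p = 0.0354). Wnt4, a ligand that progesterone induces in luminal cells, had -0.13.

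**Figure D4:**
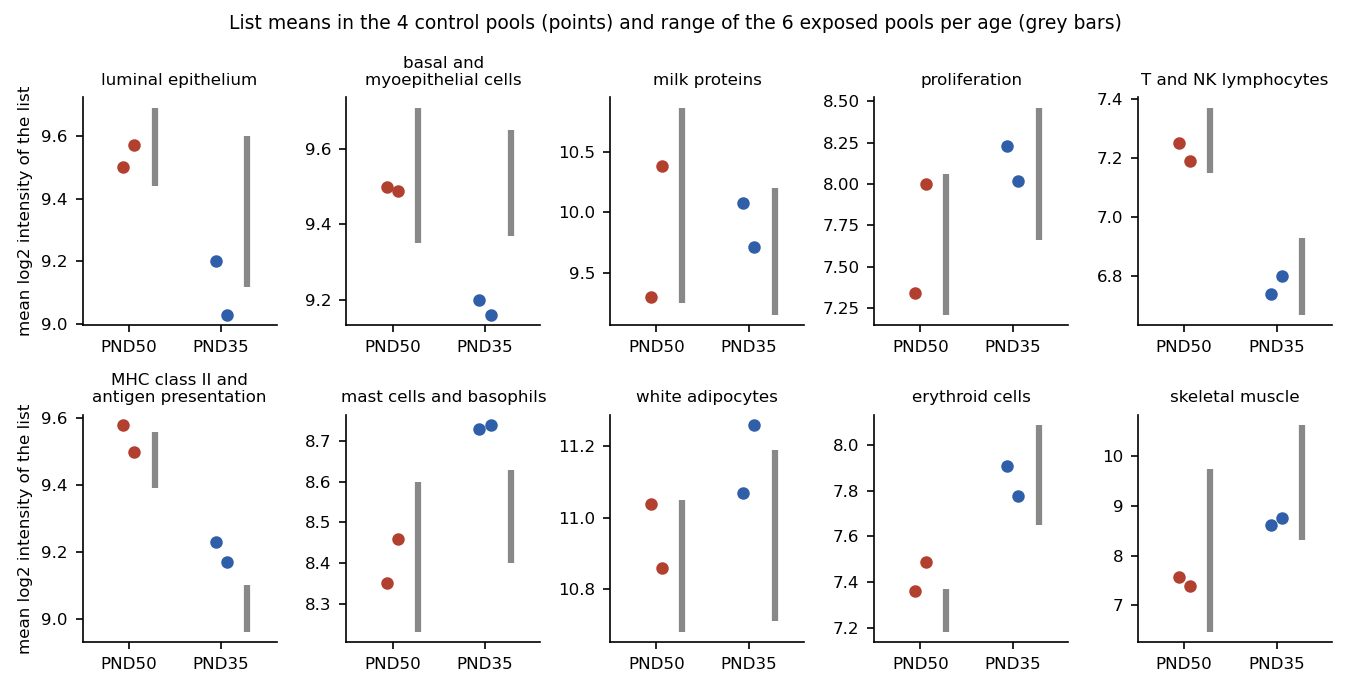
Mean log2 intensity of 10 gene lists in the 4 control pools (points, PND50 left of PND35), with the range of the 6 exposed pools of the same age as a grey bar. The control PND50 pools lie apart from each other in the milk protein (9.30 and 10.39) and proliferation lists (7.34 and 8.0), and the muscle list separates the ages in controls while the exposed ranges overlap.

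The same contrast of age was taken in the exposed pools, whose levels do not enter the control fold changes but whose spread enters the control p-values, so the exposed calls are not independent of the choice of the 102. Averaged over the 3 exposures, with 6 pools per age, 4706 genes passed (39.9%), 1982 higher (16.8%) and 2724 lower (23.1%). All 102 genes called in the controls had the same sign there, and 97 of them also passed in that direction. These 97 were 95.1% of the control calls and 2.06% of the exposed calls, which rest on more pools. Hoxa4, Bcl2l14, Marveld2, Actg2 and Il17b were the 5 that did not pass, named here after their values were seen. The median log2 fold change of the 74 higher genes was 0.63 in the controls and 0.475 in the exposed pools, and that of the 28 lower genes was -0.589 in the controls and -0.349 in the exposed pools. The genes had been chosen on their control values, so these medians are a description.

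Single exposures differed in how many of the 102 they shared. With the mixture, where 32.7% of all genes were called, 90 passed in the same direction, 65 higher (14.4% of all genes) and 25 lower (18.3%). With vinclozolin, where 2.78% of all genes were called, 36 passed, 32 higher (1.14%) and 4 lower (1.64%). With genistein, where 2.77% were called, 23 passed, 16 higher (0.814%) and 7 lower (1.96%). The same sign was found for all 102 with the mixture, for 100 with vinclozolin and for 89 with genistein. Cd7 rose by 1.43 in the exposed average and Tacr1 by 1.42, close to the control values, whereas Anxa8 rose by 0.67 there. Alox15 fell by 2.49 in the exposed pools. Lists with few control calls had more in the exposed average, with its smaller standard error: 14 of 15 T and natural killer cell genes rose, 8 of 9 class II genes rose, 23 of 24 proliferation genes fell, and 15 of 17 muscle genes fell.

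**Figure D5:**
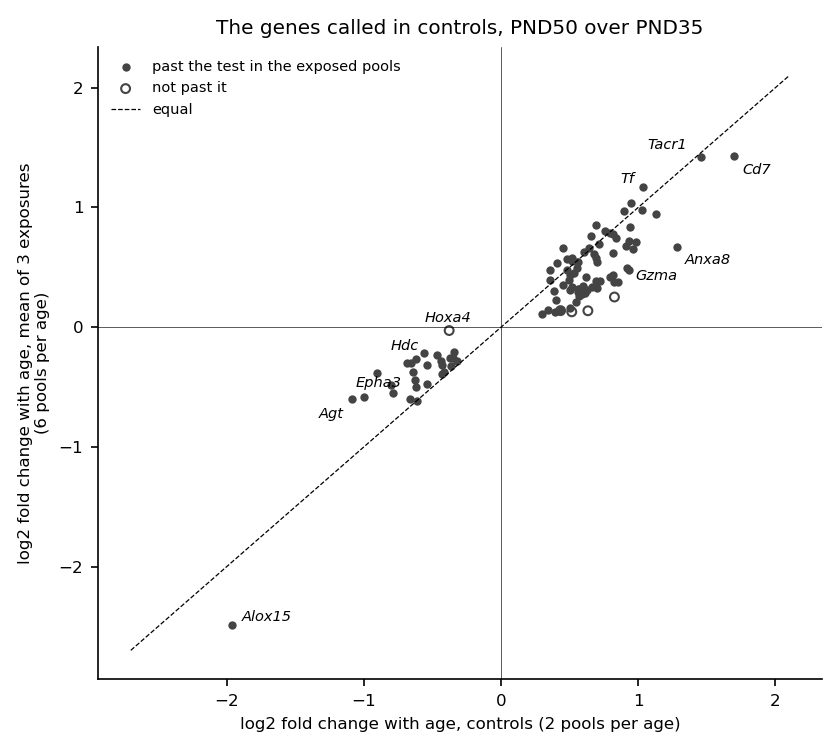
Log2 fold change with age of the 102 called genes in the controls (x axis, 2 pools per age) and as the mean of the 3 exposures (y axis, 6 pools per age), with a dashed line of equality. Filled points are the 97 genes that also passed in the exposed pools, and all 102 lie in the 2 quadrants of equal sign.

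Whether the age difference itself differed between controls and exposed pools was tested with interaction contrasts. Against the exposed average, 6 genes passed (0.0509%), all with a larger value in the controls, and none of them was among the 102. Of these 6 genes 2 lay under the filter value in every control pool, so they entered the test only through exposed pools in which they are high, and the count was 0 with the filter at the 50th percentile. They were Krt25, Krt27, Krt28, Krt73 and Krt17, keratins made in hair follicles, and Cnfn, a protein of cornified epithelia. Krt25 was flat in the controls, with 4.95 and 5.06 in the PND50 pools and 4.98 and 5.03 in the PND35 pools, all under the filter value. With vinclozolin left out of the exposed average, an alternative added after the data were seen, no gene passed (smallest adjusted p = 0.266). Against vinclozolin alone 45 genes passed (0.381%), 16 of them keratins and 7 under the filter value in every control pool, with a median log2 fold change of 0.116 in the controls and -1.908 with vinclozolin, and 11 passed with the filter at the 50th percentile. The mean of 9 skin and hair follicle genes was 6.03 and 6.08 in the control PND50 pools and 6.0 in each of the control PND35 pools, while it ran between 5.98 and 6.16 in the exposed pools at PND50 and between 5.84 and 9.22 at PND35. The part of skin in these differences was not tested.

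Against genistein no gene passed by limma (0.0%; 906 at an unadjusted p under 0.05, smallest adjusted p = 0.507). Against the mixture no gene passed either (0.0%; 1435 at an unadjusted p under 0.05, smallest adjusted p = 0.139). The standard error of such a difference was 0.133 at the median gene, with 2 pools per group. Differences well above it did not pass either. Gzma, for example, had 0.73 against genistein (SE 0.14, adjusted p = 0.507 by limma). The lack of calls therefore does not show that moderate differences were absent.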

How the data were processed

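Gene expression was measured on 16 Affymetrix arrays of rat mammary gland, each with a pool of RNA from 5 animals, and the groups came from the sample titles. The values were used as deposited by the authors, 1 per probe set and array, and their span of 2.2 to 13.9 is the only basis for taking them as log2 intensities. The log base, background correction, normalization and summarization are not given in the sources consulted. No normalization was added, since array medians ranged from 7.05 to 7.14. Without detection calls, dim probe sets could be recognised only by low values.

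Of 27342 probe sets, 15097 had 1 gene symbol in the platform annotation, 323 had several and 11922 are unnamed here. Of the named, 15067 matched a RefSeq gene of GRCr8. Each of 14324 symbols was represented by its probe set with the highest mean (499 had several). Genes with a mean under the 25th percentile (5.661) were left out, which left 11796.

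limma 3.58.1 in R 4.3.3 fitted 1 mean per group over all 16 arrays, with 8 residual degrees of freedom, contrasts of those means, eBayes and Benjamini-Hochberg adjustment over all genes tested, with an adjusted p of 0.05 as the threshold. Log2 fold changes are PND50 minus PND35. The fits were tested on simulated data. From 40 lists with 633 genes, 545 had a named probe set and 519 were tested. Lists were described by counts and medians without a set test. The comparison, its lists and the panel of named genes were chosen with earlier results of these data known. Named genes were the 20 highest and 20 lowest calls whose pools did not overlap between the ages, without placeholder symbols. Added to these were up to 6 called members of each list, or the 3 with the smallest p where fewer than 2 passed. The leading genes of the interactions and the panel were named too. List members outside this rule, and those that only show what did not pass, were chosen after their values were seen. Alternatives were other filters, normalizations and probe set rules, a replicate block, array weights, a trend with a robust fit, list means as covariates, the control arrays alone, other thresholds and each pool left out in turn. Plots used matplotlib 3.10.9 (Python 3.11.15).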

Additional observations from a re-analysis of the deposited data

Results flagged for a closer look

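The age difference in controls differed from that of the exposed average in 6 genes by limma's interaction test, 5 keratins and Cnfn. The value in controls minus the value in the exposed pools was 1.80 for Krt25, 1.71 for Krt17, 1.43 for Krt73, 1.36 for Krt27, 1.08 for Krt28 and 0.88 for Cnfn on the log2 scale, with adjusted p-values from 0.000514 to 0.0348. In the controls Krt17 had a log2 fold change of 0.97 (adjusted p = 0.0588) and the other 5 lay between -0.07 and 0.20.

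Against vinclozolin alone the same test found 45 genes. The difference was 5.45 for Krt25, 4.41 for Krt73, 4.03 for Krt27, 3.08 for Krt85, 2.95 for Krt28, 2.76 for Cnfn, 2.23 for Gsdma, a gasdermin, and 1.77 for Krt87. Anxa8 was the only one of the 45 that was also called in the controls, and the vinclozolin PND35 pools were the ones that differed most from each other among the 8 groups (SD of the difference 0.303, against 0.162 to 0.206). Their part in these differences was not tested. In 2 of the 6 and 7 of the 45 genes all control pools lay under the filter value, so these entered the test only through other pools.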

How the results depend on the processing

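The 102 genes called in the controls became 375 with array weights, 2 with the muscle mean, 0 with the luminal mean and 0 with the lymphocyte mean as a covariate, 176 on the control arrays alone (61 of the 102 among them), 348 at an adjusted p under 0.1 and 57 with at least 1.5-fold. Fits without 1 array gave 2 to 177: 177 without a genistein and 175 without a vinclozolin PND35 pool, 49 without a mixture PND35 pool, and 53 and 47 without a vinclozolin or a mixture PND50 pool, besides the control pools given above. Of the 102, 87 stayed with a filter at the 50th percentile, 94 with quantile normalization, 94 with median centring and 70 without a filter. The filter at the 50th percentile left genes with a mean under 7.092 untested, so a gene could drop out there without failing the test. The interaction with the exposed average (6) was 0 with the filter at the 50th percentile, 13 with array weights and 3 to 63 without 1 array, and 0 with vinclozolin left out. That with vinclozolin (45) was 11 with the filter at the 50th percentile and 38 to 186 without 1 array, and that with the mixture (0) was 2 without a filter and 0 to 8 without 1 array. The upper ends came without vinclozolin PND35 replicate 1 (63 and 186) and mixture PND35 replicate 1 (8). With the lymphocyte mean as a covariate Asic2 turned to -0.18, Lbp to -0.001 and Runx3, outside the rule for named genes, to -0.0495; with vinclozolin left out of the exposed average the differences turned to -0.0553 for Cnfn, -0.0244 for Krt25 and -0.0592 for Krt73. The covariates differ between the ages, and otherwise the cause was not tested. The replicate numbers were not shown to pair pools (deviations correlated at -0.293 between the control groups), and a replicate block gave 141 calls, 98 of them shared, or 101 with the control PND50 numbers crossed, an alternative chosen after seeing the data. Dim genes and 2 pools per age limit what could be seen.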

Other observations

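The control gland also held genes of nerve and Schwann cells, brown adipocytes and the molecular clock. Of 6 nerve and Schwann cell genes 1 rose, Sox10, which epithelial cells make too, and the other 5 were negative, down to -0.15 for Prph, a neuronal intermediate filament. Of 6 brown adipocyte genes none passed. Otop1, a proton channel, had 7.93 and 7.72 in the PND50 pools and 6.94 and 7.29 in the PND35 pools (0.71, SE 0.33). Of 16 clock and immediate early genes none passed. The clock gene Per1 had 9.50 and 8.90 in the PND50 pools and 9.60 and 9.59 in the PND35 pools, so PND50 replicate 2 alone lay low.

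Among matrix proteases and their inhibitors none of 18 passed and 12 were negative. Mmp13, a collagenase, had 5.25 and 5.63 in the PND50 pools and 7.08 and 5.97 in the PND35 pools (-1.09, SE 0.41), with PND35 replicate 1 apart from the other 3. Timp1, an inhibitor of such proteases, had 10.43 and 10.69 in the PND50 pools and 10.97 and 11.004 in the PND35 pools (-0.42, SE 0.11, adjusted p = 0.102). Among 12 apoptosis and involution genes 10 were positive, and Tgfb3, a growth factor of the transforming growth factor beta family, had 10.95 and 10.79 in the PND50 pools and 10.05 and 10.17 in the PND35 pools (0.76, SE 0.17, adjusted p = 0.0602). Rsad2, an antiviral protein that interferon induces, had 6.98 and 6.78 in the PND50 pools and 7.61 and 7.76 in the PND35 pools (-0.81, SE 0.24, adjusted p = 0.122), while 12 of the 16 interferon response genes were positive.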
